A study of Mus musculus with 6 samples.

Results

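The 10 genes described here encode proteins of base excision repair: the DNA glycosylases Ung, Smug1, Mbd4, Ogg1, Neil1, Neil2 and Neil3, and the partners Apex1, Xrcc1 and Parp1. They were taken by symbol from a table of 22274 genes, where all 10 were found, and all 10 passed the filter on low counts together with 14424 genes in all. The data are messenger RNA counts from mouse testes labelled day 9, with no statement of the event from which days were counted. Of the 6 libraries, 3 are labelled control, with no alleles stated, and 3 (cKO) come from a cross of mice with floxed Dcaf2 and mice carrying Stra8-Cre, so that deletion is meant for germ cells. The Stra8 promoter drives Cre in spermatogonia, and the whole testes sequenced also hold Sertoli, Leydig and other somatic cells. DCAF2 is the substrate receptor of an ubiquitin ligase, and the series title names the glycosylase TDG among its targets. The question here was how the transcripts of the other glycosylases and their partners stood in the same testes. The labels number the libraries but do not say whether each is a separate animal, and a p-value here reflects the spread of these libraries only, part of which may be technical.

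Base excision repair removes small base lesions without a large distortion of the helix. A glycosylase cuts the damaged base from its sugar, an endonuclease opens the backbone at the empty site, and a polymerase and a ligase close the gap. In the germ line the pathway also serves the removal of oxidised methylcytosine, where TDG cuts out the base. NEIL glycosylases can take over from TDG at the empty site.

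Totals ran from 15407007 to 18372964 counts per library. The transcript of the deleted gene, listed as Dtl, was at 42.6, 50.3 and 77.4 CPM (counts scaled to library size) in controls and at 41.7, 43.8 and 51.5 CPM in cKO libraries. The groups overlapped, and the difference of -0.31 on the log2 scale (SE 0.202; adjusted p = 0.281 by edgeR) became -0.51 without control library 1 (adjusted p = 0.0321 by edgeR) and -0.0245 without control library 3 (adjusted p = 0.923), so whole-gene counts check the labels only loosely. Summed CPM of 24 tested pan-germ-cell markers ran from 1926 to 2674 in controls and from 748 to 934 in cKO libraries. Of these markers 23 fell, and Sycp3, Nanos2, Nanos3 and Ddx25 also stand in the lists of single germ-cell stages given below. In bulk testis, fewer cells of a type and less RNA per cell cannot be told apart. Summed CPM of 20 Sertoli cell markers ran from 5768 to 7881 in controls and from 7959 to 8926 in cKO libraries, with 9 higher and 0 lower. That count of 9 became 15 without control library 1, 4 without control library 3, and 3, 1 and 5 without cKO library 1, 2 and 3. Among stroma markers 6 of 10 were higher, with sums of 7326 to 8842 CPM and 11308 to 11687 CPM, and 3 were higher without any 1 of the cKO libraries. By the test described below, 11.1% of all tested genes were higher and 13.9% lower. The part of these marker shifts in the results below was not tested.

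Ung, Neil2, Apex1 and Parp1 fell in the knockout testes with scaling over all genes, and 0 of the 10 genes rose. Relative to pan-germ-cell transcripts the direction turned and 9 of 10 were higher, where 93.6% of all tested genes passed. Neil2 fell 2.16-fold, while Ung, Apex1 and Parp1 fell to 74.2%, 73.9% and 73.1% of the control level. Ogg1 was at 73.6% of control and did not pass the test, and Neil3 was at 130% and did not pass. Smug1, Mbd4, Neil1 and Xrcc1 overlapped between the groups. The tests are edgeR's quasi-likelihood test with Benjamini-Hochberg adjustment over all tested genes, at a threshold of 0.05. By that rule 25.0% of all tested genes changed, 13.9% lower and 11.1% higher, beside 4 lower and 0 higher of these 10. The number called was 2 without control library 3, 1 without cKO library 1 and 1 without cKO library 2, where 12.2%, 9.83% and 9.29% of all tested genes were called. Every cKO library lay under every control library for 5 of the 10 genes, against 22.1% of all tested genes, and above for 1, Neil3, against 22.5%. The median log2 fold change was -0.25 over the 10 genes and 0.03 over all tested genes.

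**Figure D1:**
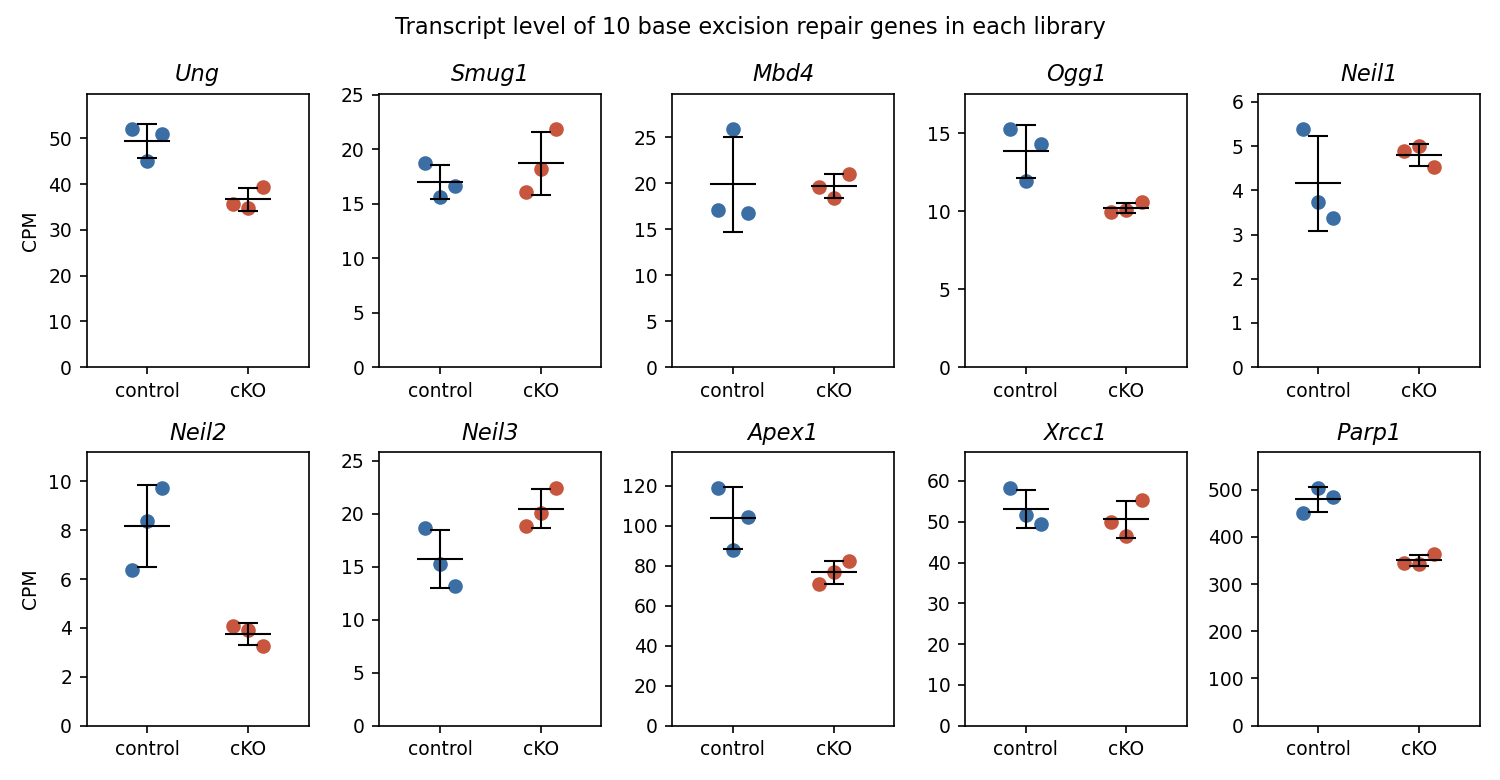
CPM of the 10 genes in each library (points), with control in blue and cKO in red; the long bar is the group mean and the error bar the SD (n = 3), and each vertical axis starts at 0. The groups are separate for Ung, Ogg1, Neil2, Neil3, Apex1 and Parp1 and overlap for the other genes.

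Of the glycosylases, 3 act on uracil or on thymine opposite guanine. Ung (ENSMUSG00000029591), the main enzyme that removes uracil from DNA, was at 52.0, 45.1 and 51.0 CPM in controls and at 35.7, 34.8 and 39.5 CPM in cKO libraries. The lowest control lay above the highest cKO library. The mean fell from 49.4 ± 3.72 to 36.6 ± 2.48 CPM (SD, n = 3 each), which is a log2 fold change of -0.43 with an SE of 0.0995 and a 95% interval from -0.66 to -0.21 (adjusted p = 0.0155 by edgeR). The call did not hold without control library 3 (-0.41, adjusted p = 0.0663 by edgeR), cKO library 1 (-0.41, adjusted p = 0.0764) or cKO library 2 (-0.39, adjusted p = 0.0876), while the value moved little. The gene makes a nuclear and a mitochondrial form of the enzyme, and whole-gene counts do not separate them.

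Smug1 (ENSMUSG00000036061), a single-strand-selective uracil glycosylase, was at 18.7, 15.6 and 16.6 CPM in controls and at 16.1, 18.2 and 21.9 CPM in cKO libraries. The groups overlapped, with 1 cKO library above all controls, and the log2 fold change of 0.14 had a 95% interval of -0.19 to 0.47 (adjusted p = 0.513 by edgeR). Within each library, Ung had 2.77, 2.89 and 3.07 times the CPM of Smug1 in controls and 2.21, 1.91 and 1.81 times in cKO libraries. On the deposited FPKM scale, which is per transcript length, the ratios were 4.75, 5.37 and 4.54 in controls and 4.76, 2.94 and 3.20 in cKO libraries. The CPM ratios did not overlap between the groups and the FPKM ratios did. The pair was set side by side after its values were seen, so it is given without a test.

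Mbd4 (ENSMUSG00000030322), which joins a methyl-CpG binding domain to a glycosylase that removes thymine from G:T mismatches at CpG, was at 17.0, 25.9 and 16.7 CPM in controls and at 19.6, 18.4 and 21.0 CPM in cKO libraries. Control library 2 stood above all others, and the other controls below all cKO libraries. The log2 fold change was -0.02 (95% interval -0.42 to 0.38, adjusted p = 0.953 by edgeR), and without control library 2 it turned to 0.21 (adjusted p = 0.229). In GENCODE M21, 264 of its 5280 exon bases (5.0%) lie under an antisense gene that was not tested here. Tdg, the related enzyme named in the series title, was at 91.8 ± 4.46 and 92.3 ± 3.01 CPM.

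The other 4 glycosylases act mainly on oxidised bases. Ogg1 (ENSMUSG00000030271), which removes 8-oxoguanine opposite cytosine, was at 15.2, 11.9 and 14.3 CPM in controls and at 9.95, 10.04 and 10.6 CPM in cKO libraries. All cKO libraries were below all controls and lay close together. The log2 fold change of -0.44 (SE 0.142, 95% interval -0.76 to -0.12) just missed the threshold with edgeR (adjusted p = 0.050044, unadjusted p = 0.0125). It passed with DESeq2 (adjusted p = 0.0321), with RLE or total-count scaling and with the stricter filter on low counts. It also passed with limma on the deposited FPKM values and without control library 2 (-0.55, adjusted p = 0.0183 by edgeR). Ogg1 did not pass with limma-voom (adjusted p = 0.0555). By edgeR it also missed with upper-quartile scaling, no filter or the replicate number as a block (adjusted p = 0.0552, 0.0507 and 0.0966). With any other 1 library left out, its edgeR adjusted p ran from 0.0574 to 0.154. In the GENCODE M21 annotation 232 of its 2187 exon bases (10.6%) lie over Camk1 on the other strand, and reads from the 2 genes there cannot be told apart where counting ignores strand. Camk1 was at 26.5 and 31.2 CPM (a log2 difference of 0.24, adjusted p = 0.16 by edgeR).

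Neil1 (ENSMUSG00000032298), a glycosylase for oxidised pyrimidines that can act ahead of the replication fork, had 56 to 102 counts per library. It was at 5.38, 3.74 and 3.37 CPM in controls and at 4.88, 4.99 and 4.52 CPM in cKO libraries. Control library 1 was the highest of the 6 and the other controls the lowest, so that the cKO values lay inside the control range. The log2 fold change was 0.20 with a wide 95% interval, -0.31 to 0.71 (adjusted p = 0.546 by edgeR), and 0.41 without control library 1 (adjusted p = 0.16).

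Neil2 (ENSMUSG00000035121), which prefers lesions in bubbles and transcribed DNA, changed most among the 10 genes with scaling over all genes; relative to pan-germ-cell transcripts its difference was the smallest of the 10, at 0.43, and that of Neil3 the largest, at 1.86. It had 121, 150 and 162 counts in controls and 63, 67 and 49 in cKO libraries, or 6.38, 8.36 and 9.74 against 4.10, 3.93 and 3.25 CPM. Every cKO library was below every control. The mean fell from 8.16 ± 1.69 to 3.76 ± 0.447 CPM (SD, n = 3 each), which is a log2 fold change of -1.11 with an SE of 0.213 and a 95% interval from -1.59 to -0.63 (adjusted p = 0.00738 by edgeR). It passed with any 1 library left out, with values from -1.29 to -0.97 and adjusted p from 0.000919 to 0.0364. On the deposited FPKM scale it was at 3.70, 4.78 and 5.72 in controls and at 2.15, 1.97 and 2.51 in cKO libraries, again without overlap. The transcript length that a library's count and FPKM imply together was 1267 bases in cKO library 3 and 1754 to 1936 bases in the other 5, so the FPKM of that library is high for its count.

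Neil3 (ENSMUSG00000039396), the NEIL enzyme of dividing cells that also unhooks interstrand crosslinks, stood on the other side. It was at 18.7, 15.2 and 13.2 CPM in controls and at 18.9, 20.1 and 22.5 CPM in cKO libraries. The groups did not overlap, but control library 1 lay just below the lowest cKO library. The log2 fold change of 0.38 (SE 0.1504, 95% interval 0.04 to 0.72) did not pass (adjusted p = 0.0941 by edgeR), and it passed without control library 1 (0.50, adjusted p = 0.0124). Within each library, Neil3 had 2.93, 1.82 and 1.36 times the CPM of Neil2 in controls and 4.603, 5.10 and 6.90 times in cKO libraries. That pair was also chosen after its values were seen and is given without a test.

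**Figure D2:**
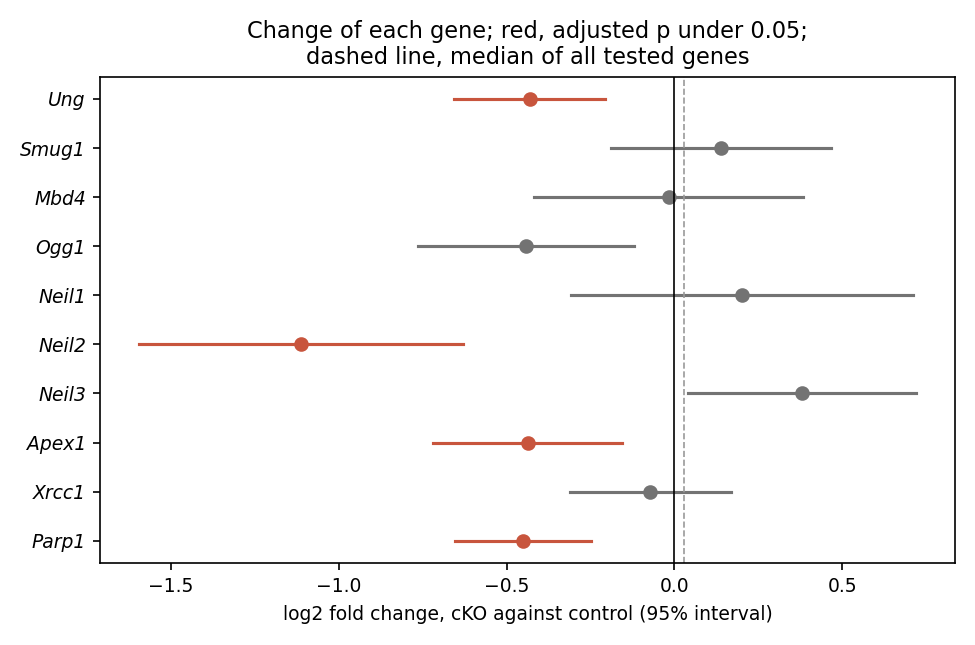
Log2 fold change of each gene, cKO against control with scaling over all genes (point), with its 95% interval (line); red marks an edgeR adjusted p under 0.05. The intervals of Ung, Apex1 and Parp1 lie close together around -0.44, and that of Neil2 reaches from -1.59 to -0.63. Relative to pan-germ-cell transcripts all 10 values are above 0, as is the median of all tested genes (1.53).

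The partners act after the base has been removed. Apex1 (ENSMUSG00000035960), the main AP endonuclease, was at 119, 88.1 and 105 CPM in controls and at 71.0, 76.8 and 82.6 CPM in cKO libraries. The groups were separate, with control library 2 nearest to the cKO values. The mean fell from 104 ± 15.5 to 76.8 ± 5.77 CPM (SD, n = 3 each), which is a log2 fold change of -0.44 with an SE of 0.124 and a 95% interval from -0.72 to -0.16 (adjusted p = 0.0326 by edgeR). The call held without control library 1 or 2 and was lost without control library 3 (-0.43, adjusted p = 0.0995 by edgeR) or cKO library 1, 2 or 3 (-0.38, -0.44 and -0.49, adjusted p = 0.138, 0.115 and 0.0694). In GENCODE M21, 877 of the 1422 exon bases of Apex1 (61.7%) lie over Pip4p1 on the other strand. Pip4p1 was at 31.0 and 24.9 CPM (a log2 difference of -0.32, adjusted p = 0.0614 by edgeR), so the value of Apex1 is uncertain if counting ignored strand. Pip4p1 and Camk1 are named for this overlap.

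Parp1 (ENSMUSG00000026496), which senses strand breaks and makes poly(ADP-ribose) there, had the most counts of the 10 genes, from 5311 to 9048 per library. It was at 451, 504 and 484 CPM in controls and at 345, 343 and 364 CPM in cKO libraries. Each group kept to a narrow range and the ranges were far apart. The mean fell from 480 ± 26.9 to 351 ± 11.5 CPM (SD, n = 3 each), which is a log2 fold change of -0.45 with an SE of 0.0898 and a 95% interval from -0.65 to -0.25 (adjusted p = 0.00852 by edgeR). The call was lost without cKO library 1 (-0.44, adjusted p = 0.0562 by edgeR) or cKO library 2 (-0.43, adjusted p = 0.063).

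Xrcc1 (ENSMUSG00000051768), the scaffold that PARP1 recruits to hold the ligase and polymerase at a break, was at 58.4, 51.6 and 49.5 CPM in controls and at 49.9, 46.4 and 55.4 CPM in cKO libraries. The groups overlapped over most of their range. The log2 fold change was -0.07 with a 95% interval of -0.31 to 0.17 (adjusted p = 0.656 by edgeR), and it stayed between -0.14 and -0.01 with any 1 library left out.

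**Figure D3:**
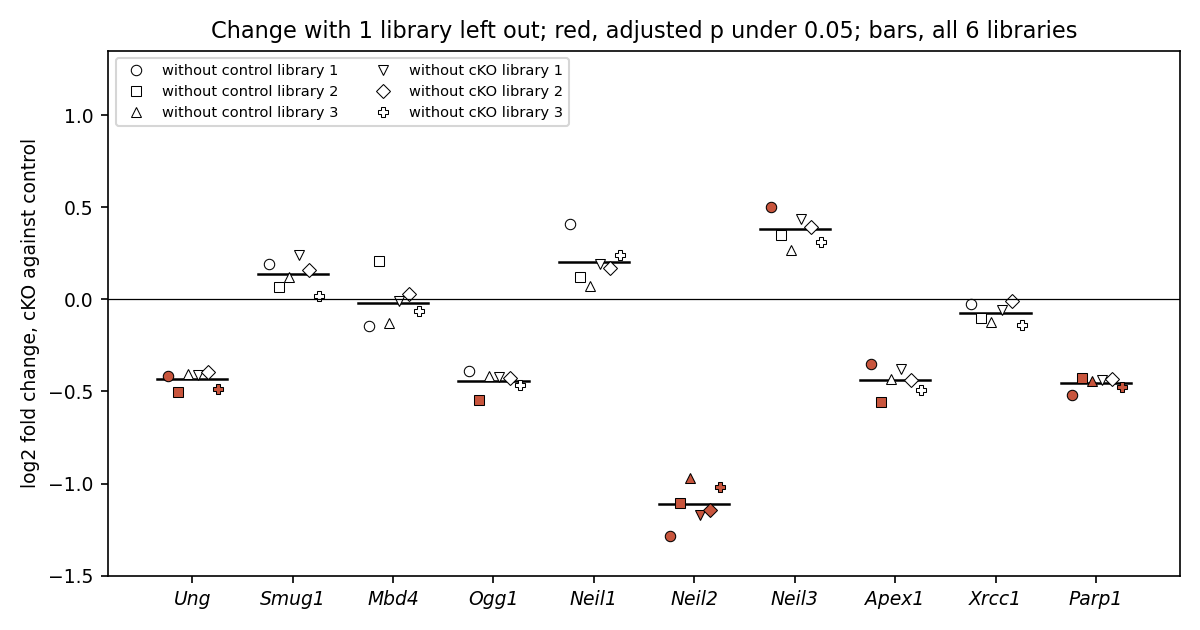
Log2 fold change of each gene, cKO against control with scaling over all genes, refitted with 1 library left out (symbols) beside the value over all 6 libraries (bars); red symbols mark an edgeR adjusted p under 0.05. Neil2 is red in all 6 refits, Parp1 in 4, Ung in 3 and Apex1 in 2. Neil3 and Ogg1 are red in 1 each, without control library 1 and 2. Relative to pan-germ-cell transcripts all 10 values are above 0, as is the median of all tested genes (1.53).

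Promoter sequences are shown for Ung, Apex1 and Parp1, called lower with log2 fold changes of -0.43, -0.44 and -0.45. That of Neil3, whose difference pointed the other way, is shown too. Ogg1, at -0.44 and not called, is left out. RefSeq's table (build GRCm38.p6) held a window for 9 of the 10 genes, Neil2 not among them. The build behind the deposited counts is not given in the sources used here, and the sequences do not depend on it. Each run gives the 250 bases before the annotated start, 5′ to 3′ on the gene's strand, from the first window listed for the gene. A short stretch just past that start was found in 1 of 6 GENCODE M21 transcripts of Ung and 2 of 4 of Apex1. It was found in 1 of 7 of Neil3 and 0 of 8 of Parp1, so the Parp1 start was not matched there. Ung lies at chr5:114130185-114130434 on the plus strand, Apex1 at chr14:50924699-50924948 on the plus strand, Parp1 at chr1:180568641-180568890 on the plus strand and Neil3 at chr8:53639066-53639315 on the minus strand. Capitals mark the letters GGGCGG (a GC box), CCAAT and CACGTG (an E box), each searched on both strands; the last reads the same on both, and no 2 marked stretches overlap.
Ung: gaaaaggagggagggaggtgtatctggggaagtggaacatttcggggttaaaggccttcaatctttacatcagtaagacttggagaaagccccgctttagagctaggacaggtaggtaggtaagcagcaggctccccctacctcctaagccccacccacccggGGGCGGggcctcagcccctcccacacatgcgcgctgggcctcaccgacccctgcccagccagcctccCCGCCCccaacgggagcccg
Apex1: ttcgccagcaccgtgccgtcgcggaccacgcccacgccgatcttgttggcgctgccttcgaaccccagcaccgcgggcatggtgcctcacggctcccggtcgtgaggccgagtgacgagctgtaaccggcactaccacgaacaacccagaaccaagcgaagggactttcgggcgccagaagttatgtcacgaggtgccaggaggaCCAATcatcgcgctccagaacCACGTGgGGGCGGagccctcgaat
Parp1: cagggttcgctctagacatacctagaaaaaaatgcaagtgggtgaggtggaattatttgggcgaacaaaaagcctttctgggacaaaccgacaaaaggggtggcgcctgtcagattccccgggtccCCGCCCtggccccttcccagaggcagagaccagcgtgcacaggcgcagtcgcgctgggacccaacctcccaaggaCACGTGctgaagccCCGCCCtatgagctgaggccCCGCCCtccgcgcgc
Neil3: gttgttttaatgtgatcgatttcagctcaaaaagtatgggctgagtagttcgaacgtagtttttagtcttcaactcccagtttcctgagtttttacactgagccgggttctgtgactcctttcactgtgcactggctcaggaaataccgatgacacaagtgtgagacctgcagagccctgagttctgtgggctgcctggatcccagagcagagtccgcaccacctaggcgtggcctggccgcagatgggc
The GC box letters stand 2 times in the window of Ung, 1 time in that of Apex1 and 3 times in that of Parp1, and 5 of the 9 windows held them (Ung, Mbd4, Ogg1, Apex1 and Parp1), where 32.9% of 27025 gene windows, also the 250 bases before the start, did. The E box letters were found in Apex1 and Parp1, against 6.05% of windows, and CCAAT in 5 of 9 (Smug1, Mbd4, Ogg1, Apex1 and Xrcc1), against 34.5%. None of these letters is in the Neil3 window, nor in that of Neil1, whose groups overlapped. Letters that E2F factors can bind, searched as TTTGGCGC, TTTCCCGC and GGCGGGAA on both strands, were in 0 of the 9, against 0.44%, 0.93% and 1.88% of windows. The share of G and C was 62.8% in Ung, 64.8% in Apex1, 61.6% in Parp1 and 51.6% in Neil3. It was also 61.6% in Mbd4 and 63.6% in Ogg1, and 49.2% to 54.8% in Xrcc1, Smug1 and Neil1, against a median of 52.0% over all windows. A match of letters is a description and not a bound site.

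The order of levels among the 10 genes was taken on the deposited FPKM scale, which is per transcript length. Parp1 was highest in controls at 130 ± 3.78 FPKM, followed by Apex1 at 93.3 ± 13.3, Ung at 31.0 ± 2.995 and Xrcc1 at 25.2 ± 2.36 FPKM (SD, n = 3 each). Those 4 stood clear of the rest, and among them only Ung and Xrcc1 overlapped. Ogg1 (9.09 ± 1.27 FPKM), Neil3 (7.13 ± 1.28), Mbd4 (6.77 ± 2.11), Smug1 (6.41 ± 1.07) and Neil2 (4.73 ± 1.01) formed a chain in which each overlapped the next. Neil1 was lowest at 2.56 ± 0.662 FPKM. Ung alone made up 43.7% to 46.8% of the summed FPKM of the 7 glycosylases in controls and 38.3% to 42.3% in cKO libraries.

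The order was different in cKO libraries. Xrcc1 (22.9 ± 2.11 FPKM) and Ung (22.5 ± 2.69 FPKM) overlapped and traded places. Neil3 led the lower genes at 8.87 ± 0.781 FPKM, clear of Smug1 (6.47 ± 1.66), Ogg1 (6.38 ± 0.187) and Mbd4 (6.15 ± 0.468), which overlapped. Neil2, at 2.21 ± 0.275 FPKM, was now below Neil1, at 2.81 ± 0.133 FPKM, and these 2 did not overlap. For Smug1, count and FPKM imply transcript lengths from 2483 bases in control library 3 to 3397 bases in cKO library 1, so its FPKM does not follow its count from library to library.

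**Figure D4:**
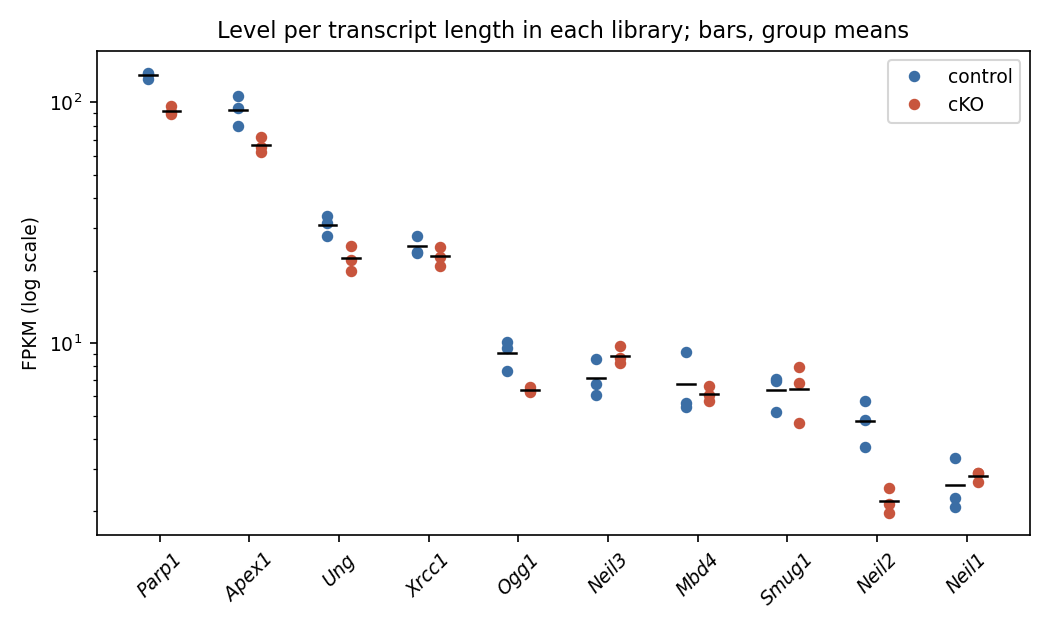
Deposited FPKM of the 10 genes in each library on a log axis, control in blue and cKO in red, with bars at the group means (n = 3); genes are in the order of the control means. Parp1, Apex1, Ung and Xrcc1 lie above the other 6 in every library, and those 6 are at 10.1 FPKM or less.

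Relative to the summed counts of the 25 pan-germ-cell genes, the median of all tested genes moved from 0.03 to 1.53 on the log2 scale. All 10 genes then had positive values, and 9 passed as higher, where 93.6% of all tested genes passed. Neil2 was the exception, at 0.43 (adjusted p = 0.144 by edgeR). Taken from that shifted median, Neil2 stood at -1.10, Apex1 at -0.49, Ogg1 at -0.48, Ung at -0.47, Parp1 at -0.47, Xrcc1 at -0.12, Mbd4 at -0.02, Smug1 at 0.09, Neil1 at 0.15 and Neil3 at 0.32. This order differed from that with scaling over all genes only among Ung, Ogg1, Apex1 and Parp1.

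Other genes of the pathway were taken from 5 lists. With scaling over all genes, 21 of the 66 tested were lower, 2 were higher and 43 did not pass. Of all tested genes, 13.9% were lower and 11.1% higher. Relative to pan-germ-cell transcripts 65 of the 66 were higher, where 93.6% of all tested genes passed. The 23 calls became 11 without control library 3, 10 without cKO library 1 and 8 without cKO library 2. Among 5 other glycosylase and AP endonuclease genes, 1 fell: Mutyh, which removes adenine opposite 8-oxoguanine, from 7.71 ± 1.19 to 4.46 ± 0.593 CPM, or by 0.79 on the log2 scale (SE 0.195; adjusted p = 0.0198 by edgeR). That call did not hold without control library 3 (-0.65, adjusted p = 0.0776 by edgeR) or cKO library 1, 2 or 3 (-0.68, -0.85 and -0.84, adjusted p = 0.0864, 0.0637 and 0.0537). Nthl1, a glycosylase for oxidised pyrimidines, was at 7.501 ± 2.20 and 5.58 ± 0.547 CPM (adjusted p = 0.218 by edgeR), and without control library 2 it passed as lower (-0.67, adjusted p = 0.0262). Apex2, a minor AP endonuclease, was at 15.2 ± 1.34 and 12.8 ± 2.14 CPM (adjusted p = 0.264 by edgeR). The list median was -0.25.

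Of 20 genes of gap filling and ligation, 7 fell and 1 rose, with a median of -0.24. Pold1, the catalytic subunit of DNA polymerase delta, fell from 117 ± 8.39 to 74.6 ± 6.73 CPM, or by 0.65 on the log2 scale (SE 0.103; adjusted p = 0.00369 by edgeR). Fen1, the flap endonuclease of long-patch repair and of replication, fell from 65.4 ± 3.77 to 43.6 ± 4.82 CPM (adjusted p = 0.006 by edgeR). Tdp1, which clears blocked 3′ ends, fell from 44.4 ± 1.64 to 31.0 ± 0.876 CPM (adjusted p = 0.00455 by edgeR). Polb, the polymerase of short-patch repair, was at 25.4 ± 2.48 and 19.95 ± 1.298 CPM and did not pass (adjusted p = 0.0581 by edgeR). Lig3, the ligase held by XRCC1, was at 119 ± 31.8 and 107 ± 3.62 CPM (adjusted p = 0.566 by edgeR). The gene that rose was Pold4, a small subunit of polymerase delta, by 0.66 on the log2 scale (adjusted p = 0.0426 by edgeR), and no gene of the list rose without control library 3 or any 1 of the cKO libraries. The number of lower genes was 4 without control library 3 and 3, 3 and 4 without cKO library 1, 2 and 3. Polb, Lig3 and Pold4 were named after their values were seen.

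Of 9 genes that act with PARP1 or remove ADP-ribose, 2 fell and 0 rose, with a median of -0.28. Oard1, which takes the last ADP-ribose from proteins, fell to 49.9% of control, from 26.5 ± 2.03 to 13.3 ± 1.43 CPM, or by 1.002 on the log2 scale (SE 0.127; adjusted p = 0.00155 by edgeR). Chd1l, a chromatin remodeller that poly(ADP-ribose) switches on, fell from 72.4 ± 7.19 to 48.5 ± 1.36 CPM (adjusted p = 0.00519 by edgeR). Macrod2, a macrodomain gene, was at 6.34 ± 0.752 and 4.31 ± 0.989 CPM (adjusted p = 0.0856 by edgeR).

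Of 12 genes of uracil supply and nucleotide pool cleaning, 10 were tested, 2 fell and 1 rose, with a median of -0.10. The 2 lower genes became 1 without control library 2 or 3 or any 1 of the cKO libraries, and with the replicate number as a block. Shmt1, an enzyme of the folate cycle that feeds thymidylate synthesis, fell from 95.2 ± 6.53 to 59.3 ± 4.51 CPM, or by 0.68 on the log2 scale (SE 0.0993; adjusted p = 0.00264 by edgeR). Apobec3, a cytidine deaminase of virus defence, rose from 15.6 ± 2.15 to 22.7 ± 1.63 CPM (adjusted p = 0.0191 by edgeR). That call was lost without control library 3 or cKO library 1 or 2 (adjusted p = 0.0772, 0.0771 and 0.0863 by edgeR). Dut, which removes dUTP, a source of uracil that UNG excises, was at 67.3 ± 10.7 and 57.4 ± 2.74 CPM (adjusted p = 0.192 by edgeR) and was also picked with its value known.

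Of 22 genes of S phase and proliferation, 9 fell and 0 rose, with a median of -0.27. Ccnb1, the mitotic cyclin, fell from 126 ± 3.19 to 81.4 ± 4.62 CPM, or by 0.63 on the log2 scale (SE 0.0887; adjusted p = 0.0023 by edgeR), Cdc45, of the replicative helicase, fell from 54.7 ± 3.53 to 30.3 ± 4.55 CPM, and Mcm7, of the same helicase, from 215 ± 1.87 to 152 ± 14.0 CPM. The Mcm7 call was lost without cKO library 2 (-0.48, adjusted p = 0.0533 by edgeR). The number of lower genes in this list was 4 without control library 3, 4 without cKO library 1 and 2 without cKO library 2. The number of higher genes was 1 without control library 1 and 2 without control library 2. Summed CPM of this list overlapped between the groups, from 2886 to 3249 in controls and from 2355 to 2953 in cKO libraries. The part of the germ-cell sums given above in the counts of the 5 lists was not tested.

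**Figure D5:**
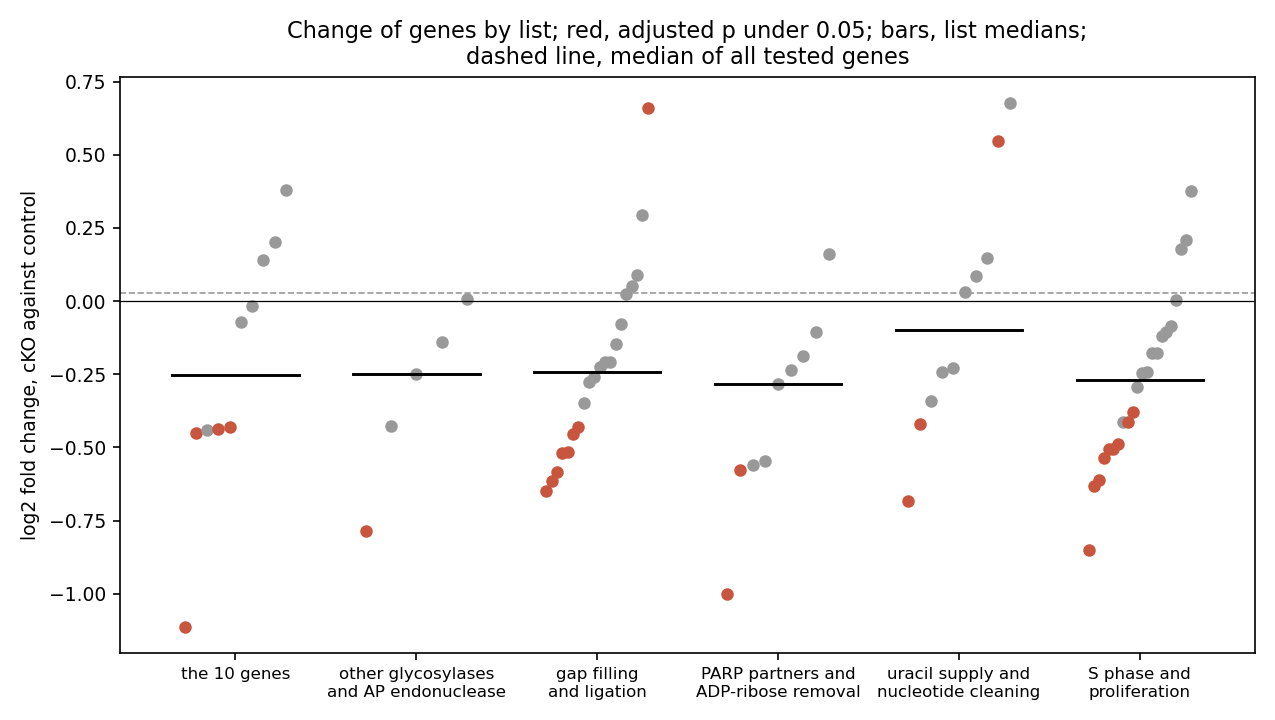
Log2 fold change, cKO against control with scaling over all genes, of each tested gene (points) in the 10-gene set and in 5 lists of related genes; red marks an edgeR adjusted p under 0.05, solid bars the list medians and the dashed line the median of all tested genes at 0.03. The list medians lie between -0.28 and -0.10, with called genes on both sides only in the gap-filling and uracil lists. Relative to pan-germ-cell transcripts 65 of the 66 list genes pass as higher, where 93.6% of all tested genes pass.

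Among the other tested genes, those whose centred log2 CPM profile over the 6 libraries was nearest to that of Neil2, the gene with the smallest p of the 10, were Rrad, Kcnab2 and Cpne5. Their root mean square differences from it were 0.0789, 0.0814 and 0.0826 on the log2 scale. Rrad, a small GTPase gene, was at 4.21 ± 1.04 and 1.94 ± 0.144 CPM, Kcnab2, a potassium channel subunit gene, at 11.2 ± 2.06 and 5.62 ± 0.861 CPM, and Cpne5, a copine gene, at 18.5 ± 3.95 and 8.95 ± 1.10 CPM. In each of them, as in Neil2, control library 1 was the lowest control and control library 3 the highest. The call of Rrad (log2 fold change -1.11, adjusted p = 0.0152 by edgeR) was lost without control library 3 or cKO library 1, 2 or 3 (adjusted p = 0.0606, 0.0545, 0.0639 and 0.0588).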

How the data were processed

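Messenger RNA of testes was sequenced in 3 control and 3 cKO libraries. Per the labels' protocols, column-purified total RNA went into a Hieff NGS messenger RNA kit. StringTie 1.3.1 and RSEM stand in the submitters' processing notes, with no role given for either; for the aligner, build, annotation and strand setting the entry is: not given in the sources used here. The deposited counts are whole numbers and, with RSEM named, are read here as the authors' estimated counts after rounding. The deposited FPKM values are the authors' own, per transcript length and library size.

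Symbols were matched to gene IDs for 22219 of 22274 genes. Genes passing filterByExpr of edgeR 4.0.16 (minimum count 10) were scaled by TMM and tested with glmQLFit and glmQLFTest in R 4.3.3, cKO against control, with no covariates and Benjamini-Hochberg adjustment over all 14424. The genes left out held 0.063% of counts. SE is the size of the log2 fold change divided by the square root of F. The procedure was tested on simulated data in which a far smaller share of genes changed than the 25.0% called here. That run therefore cannot speak for shifts as broad as those in these libraries. The 10 genes and all lists were chosen with earlier results of these data known. Besides the 10 genes, Dtl and Tdg, the rule named the 3 genes with the smallest p of each pathway list, 1 of each marker list, and the 3 profiles nearest to the member with the smallest p; 1 of the pathway genes so named is not reported here.

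Alternatives were DESeq2 1.42.0, limma-voom (limma 3.58.1), RLE, upper-quartile, total-count and pan-germ-cell scaling, no filter, a stricter filter (CPM 1 or more in 3 or more libraries), limma on log2(FPKM + 0.1), a replicate block, and each library left out. Promoter windows come from RefSeq and exon overlaps from GENCODE M21, both on GRCm38.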

Additional observations from a re-analysis of the deposited data

How the results depend on the processing

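Outside the scaling by pan-germ-cell genes, 128 of 150 alternative values of the 10 genes kept their direction and their side of the threshold, 10 lost a call, 7 gained one and 5 turned sign. The sign turned for Mbd4 with limma-voom (0.00878), with the replicate block (0.00807) and without single libraries (range -0.14 to 0.21), and for Smug1 with limma on deposited FPKM (-0.00603), all without a call. With 1 library left out, the number of the 10 genes called ran from 1 to 5, of lower genes from 1 to 5 and of higher genes from 0 to 1, while 1355 to 5255 genes of the transcriptome and 8 to 29 of the 66 pathway genes were called; fewer libraries also lower the power of the test. Without control library 3, cKO library 1 and cKO library 2 the number of the 10 genes called was 2, 1 and 1. Dtl then ran from -0.51 to -0.0245, Tdg from -0.0301 to 0.0331 and Hba-a1 from -0.78 to 0.38.

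Scaling by the pan-germ-cell genes raised all values by construction. It called 13501 genes of the transcriptome, 65 pathway genes and 9 of the 10 genes, with 9 higher and 0 lower. Values turned to 1.06 for Ung, 1.51 for Mbd4, 0.43 for Neil2, 1.05 for Ogg1, 1.05 for Apex1, 1.42 for Xrcc1, 1.07 for Parp1 and 1.22 for Dtl. Among other genes they turned to 0.73 for Mutyh, 1.06 for Nthl1, 1.24 for Apex2, 0.86 for Pold1, 0.99 for Tdp1, 0.91 for Fen1, 0.49 for Oard1, 0.95 for Chd1l, 0.92 for Macrod2, 0.82 for Shmt1, 0.88 for Ccnb1, 0.66 for Cdc45, 0.998 for Mcm7, 1.01 for Hba-a1, 0.42 for Rrad, 0.55 for Kcnab2 and 0.50 for Cpne5. Tdg, at 1.52 with this scaling (adjusted p = 1.18e-06 by edgeR), was otherwise near 0, at -0.00916 with DESeq2, -0.009 with RLE, -0.0186 with upper-quartile and -0.0579 with total-count scaling, -0.00107 with no filter and -0.0301 with limma on FPKM.

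With the replicate number as a block, 3 of the 10 genes were called, where 19.6% of all tested genes were. Apex1 was lost with that block (-0.43, edgeR adjusted p = 0.0529). Pairing by number was not seen, though this check cannot exclude it. The deviations of same-numbered libraries from their group means correlated at -0.07, -0.08 and 0.07 across genes. Of the 3 controls, 0 matched best with its own number. Depth limits Neil1 and Neil2 most, with 49 to 162 counts per library.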

Other observations

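The other marker lists, chosen with earlier results known, stood as follows with scaling over all genes. Among meiotic prophase genes 21 of 24 tested fell. The list of differentiating spermatogonia had 13 lower and 1 higher of 14, and that of undifferentiated spermatogonia 9 lower and 2 higher of 20. The 2 higher genes of the last list became 1 without control library 3 or cKO library 3 and 0 without cKO library 1 or 2. The medians of the 3 lists were -1.68, -1.78 and -0.66. Of 11 Leydig, 10 peritubular myoid, 12 macrophage, 10 endothelial and 5 erythroid genes, 3, 1, 2, 5 and 0 rose and 0 fell in each list. The shares over all tested genes were 11.1% higher and 13.9% lower, and the myoid and macrophage counts lay near the first. With 1 library left out, the number of higher genes ran up to 8 in the Leydig list (without control library 1), from 0 to 3 in the myoid list, from 1 to 4 in the macrophage list and down to 0 in the endothelial list (without cKO library 1), and 1 myoid gene was lower without control library 1 or 2. The erythroid sums varied within the controls, at 659, 270 and 166 CPM in control libraries 1, 2 and 3. Control library 1 also stood apart in the Leydig sums, at 960 CPM against 521 and 489 CPM in control libraries 2 and 3. In the same order the Sertoli sums were 7881, 6138 and 5768 CPM, and the meiotic sums 720, 1075 and 1005 CPM. Its pan-germ-cell sum was 1926 CPM, against 2674 and 2595 CPM. The myoid sums were close, at 1898, 1886 and 1874 CPM. Ung, Apex1 and Parp1 (-0.43, -0.44 and -0.45) lay above these 3 medians, and Neil2 (-1.11) lay below that of the undifferentiated list and above the others; these differences were not tested.

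The gene with the smallest p of each germ-cell list fell. Dmrtb1, of differentiating spermatogonia, fell from 47.03 ± 5.21 to 2.06 ± 0.612 CPM (SD, n = 3 each; adjusted p = 3.89e-05 by edgeR). Sox3, of undifferentiated spermatogonia, fell from 33.8 ± 3.52 to 6.19 ± 0.684 CPM, Sycp3, of the synaptonemal complex, from 46.96 ± 6.74 to 10.6 ± 0.402 CPM, and Tex13b, of the pan-germ-cell list, from 52.3 ± 2.15 to 14.6 ± 0.283 CPM. In the somatic lists Kitl, Prlr, Pdgfra and Mrc1 rose, by 0.67, 0.96, 0.82 and 0.50 on the log2 scale. Smtn and Pecam1 rose by 0.39 and 0.48, and both calls were lost without cKO library 1 or 2, that of Smtn also without control library 3. Hba-a1, a globin gene, was at 85.1 ± 62.9 and 65.03 ± 27.04 CPM and did not pass (adjusted p = 0.571 by edgeR).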
